A study of Mus musculus with 8 samples.

Results

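Aminoacyl-tRNA synthetases are the enzymes that load each tRNA with its amino acid, and their RNA was read here in CD8+ T cells with and without a guide against Elovl1, the gene of a fatty acid elongase. Members were chosen by symbol alone. A gene entered when its symbol was a capital letter followed by "ars", with or without a final 1 or 2, or when it was Eprs, Eprs1, Farsa or Farsb, and symbols ending in 2 were read as mitochondrial. The rule found 37 of the 56805 symbols in the table, of which 20 were cytosolic and 17 mitochondrial. All 37 passed the filter on low counts, as did 16006 symbols in all.

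The cells came from young adult OT-I:Rosa26-Cas9 mice on the C57BL/6J background, bred from Rag2/OT-I mice, whose T cell receptor recognises an ovalbumin peptide, and mice that express Cas9 constitutively. CD8+ T cells were activated in culture with CD3/CD28 beads, expanded with IL-2, IL-7 and IL-15, and given a lentiviral vector with the reporter CD90.1. The vector carried a guide against Elovl1 in sgElovl1 cells or a non-targeting guide in sgNT cells, and CD90.1+ cells were sorted 3 days after transduction. The labels name 8 samples, 2 replicates of each guide in each of 2 experiments. The deposited table held 4 columns, each the sum of the 2 replicate mice of 1 guide in 1 experiment, so that the spread between mice of an experiment was not analysed here and n is 2 columns per guide. Both guides shared the activation, the Cas9 and the vector, and every result below refers to cultured, sorted cells. The labels do not say what differed between the experiments. In bulk RNA of this kind, fewer cells of a type and less RNA per cell cannot be told apart.

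Each synthetase recognises an amino acid and the tRNAs that decode it, and joins them at the cost of ATP. Mammalian cells hold a cytosolic set, of which several members sit together in the multisynthetase complex on the scaffold proteins Aimp1, Aimp2 and Eef1e1, and a mitochondrial set that is encoded in the nucleus, imported, and serves the few proteins made inside mitochondria. The genes Gars and Kars make both forms of their enzyme, and mitochondrial glutaminyl-tRNA is made by amidation of a tRNA first charged by Ears2, so that no mitochondrial partner of Gars, Kars or Qars is in the set. T cells raise protein synthesis when they are activated, and many cytosolic synthetase genes are targets of the transcription factor ATF4, which responds to amino acid shortage and to growth signals.

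Total counts per column were between 49068952 and 63623476, and 3 counts, the upper limit that a count of 0 allows, corresponded to 0.0474 to 0.0601 CPM (counts scaled to a common library total), which covers counting error only. The RNA of Elovl1 matched the guides in both experiments. It stood at 61.3 and 55.8 CPM in sgElovl1 cells of experiments 1 and 2, against 110 and 93.5 CPM in sgNT cells (log2 fold change -0.80, SE 0.07, adjusted p = 3.80e-28 by edgeR). The 8 markers of CD8 T cells summed to 5129 to 6028 CPM per column. The lists of other cell types were low, with sums of 4.31 to 10.6 CPM for CD4 T cells, 7.58 to 9.79 CPM for B cells, 9.31 to 14.9 CPM for myeloid cells, 0.988 to 1.79 CPM for NK cells and 0.220 to 0.415 CPM for erythroid cells.

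By summed CPM the cytosolic enzymes were the more abundant set in every column. Per kilobase, Lars2 was the highest of the mitochondrial ones, and Tars2 also stood above several cytosolic genes. Levels between genes are given per kilobase of the longest annotated protein-coding transcript, as the mean CPM of the 4 columns. Counts included introns, so these levels also carry unspliced RNA. The median was 38.2 CPM per kb over the cytosolic genes and 8.96 CPM per kb over the mitochondrial genes. Vars, which charges valyl-tRNA, had the highest level at 131 CPM per kb. It was followed by Gars (glycine) at 104, Kars (lysine) at 99.5, Qars (glutamine) at 84.1 and Sars (serine) at 83.1 CPM per kb. The lowest cytosolic gene was Iars (isoleucine) at 17.9 CPM per kb. Among the mitochondrial genes Lars2, the leucyl enzyme, stood at 56.9 CPM per kb, and the next was Tars2 (threonine) at 29.9 CPM per kb. Nars2 (asparagine) and Mars2 (methionine) were lowest, at 1.14 and 0.733 CPM per kb. The place of Mars2 follows from its longest transcript of 11.3 kb. Not corrected for length, it averaged 8.28 CPM, above Nars2 at 4.29 CPM. The plot of CPM by column has these genes in order of abundance, not corrected for length.

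**Figure D1:**
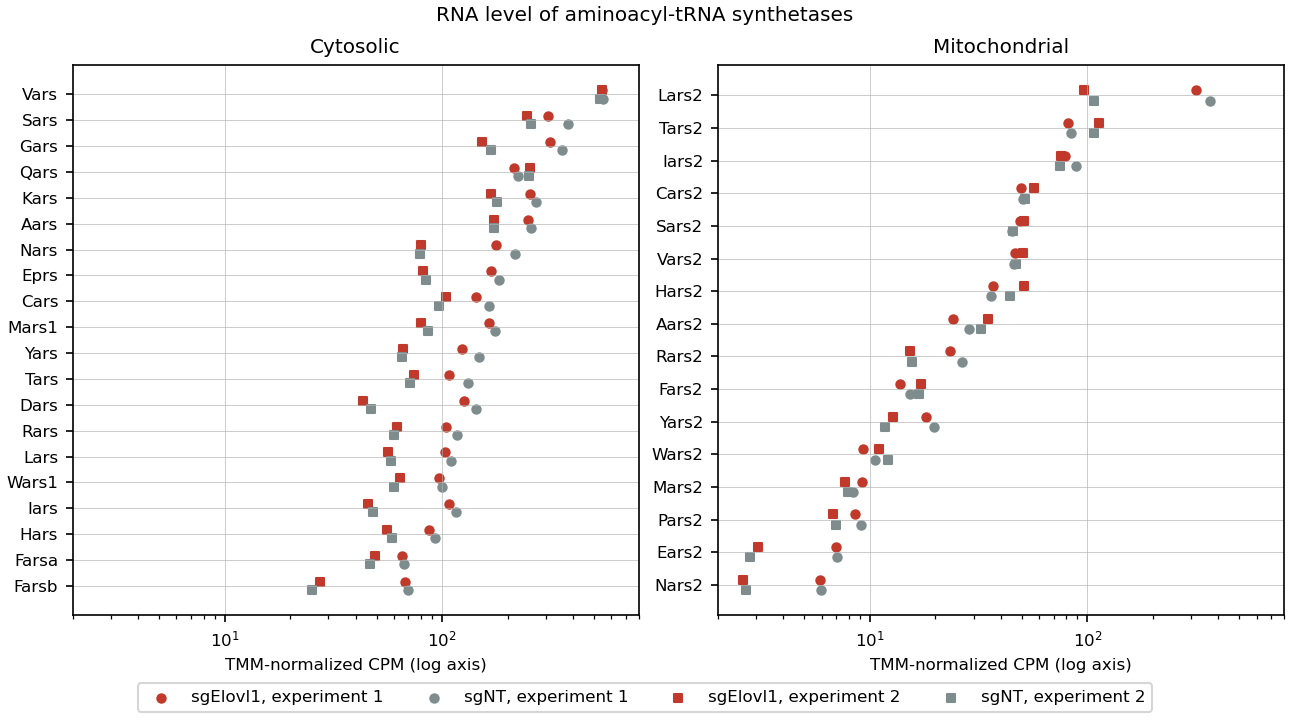
Normalised CPM (log axis) of 20 cytosolic (left) and 16 mitochondrial (right) synthetase genes in the 4 columns, ordered by their mean, with sgElovl1 in red above sgNT in grey, circles for experiment 1 and squares for experiment 2. In most cytosolic genes the squares lie left of the circles while red and grey lie close together, and Lars2 is the mitochondrial gene with the widest gap between circles and squares.

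The first comparison asked whether loss of Elovl1 changed the synthetases. None of the 37 genes passed the test for sgElovl1 against sgNT. Over all genes tested, 192 did, which is 1.20% in both directions together. At an unadjusted p under 0.05, edgeR's quasi-likelihood test named 5 members, the cytosolic Sars, Gars, Dars and Nars and the mitochondrial Lars2, all with lower levels in sgElovl1 cells. DESeq2 named 3 members at that level by either of its tests, and none after adjustment. The median log2 fold change was -0.087 for the cytosolic genes and -0.012 for the mitochondrial genes, against -0.014 for all genes tested. The SE of a member's log2 fold change was 0.063 to 0.074 in the cytosolic set and 0.064 to 0.21 in the mitochondrial set. The 95% intervals of the log2 fold changes reached at most -0.31 and 0.17 in the cytosolic set. In the mitochondrial set they reached at most -0.44 and 0.43. Changes inside those bounds are not excluded. The intervals rest on a spread estimated over all genes, and they do not bound the change in a single experiment. For Tars the interval was -0.24 to 0.020, and experiments 1 and 2 alone gave -0.28 and 0.072.

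Among the cytosolic genes, the smallest p was that of Sars, the seryl-tRNA synthetase. It had 306 and 246 CPM in sgElovl1 cells of experiments 1 and 2, against 379 and 255 CPM in sgNT cells (log2 fold change -0.18, SE 0.06, adjusted p = 0.154). Its sgElovl1 column was the lower of the pair in both experiments, by more in experiment 1, and the 2 guides overlapped across experiments. Gars, the glycyl enzyme, had 314 and 152 CPM in sgElovl1 cells, against 357 and 168 CPM in sgNT cells (-0.16, SE 0.06, adjusted p = 0.241). Dars, the aspartyl enzyme of the complex, had 126 and 43.3 CPM in sgElovl1 cells, against 143 and 47.1 CPM in sgNT cells (-0.15, SE 0.07, adjusted p = 0.371). For both genes the sgElovl1 column was the lower of each pair, and the gap between the experiments was wider than that between the guides.

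Nars, the asparaginyl enzyme, and Yars, the tyrosyl enzyme, differed mainly in experiment 1. Nars had 177 and 80.0 CPM in sgElovl1 cells, against 216 and 78.9 CPM in sgNT cells (-0.14, SE 0.06, adjusted p = 0.408). Yars had 124 and 66.3 CPM in sgElovl1 cells, against 147 and 65.3 CPM in sgNT cells (-0.12, SE 0.07, adjusted p = 0.519). The sgElovl1 level of these genes was the lower in experiment 1 and slightly the higher in experiment 2, a difference between experiments that was not tested. Vars, the most abundant member, had a log2 fold change of 0.0068 (SE 0.07).

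Of the mitochondrial genes, Lars2 had the smallest p. It had 317 and 96.4 CPM in sgElovl1 cells, against 367 and 107 CPM in sgNT cells (-0.18, SE 0.06, adjusted p = 0.171). The sgElovl1 column was the lower in both experiments, with log2 fold changes of -0.21 (experiment 1) and -0.15 (experiment 2). Wars2 (tryptophan) and Rars2 (arginine) were also on the low side in both experiments. Wars2 had 9.29 and 11.04 CPM in sgElovl1 cells, against 10.6 and 12.1 CPM in sgNT cells (-0.16, SE 0.12, adjusted p = 0.718). Rars2 had 23.4 and 15.2 CPM in sgElovl1 cells, against 26.6 and 15.5 CPM in sgNT cells (-0.11, SE 0.09, adjusted p = 0.741).

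Sars2 and Hars2, the mitochondrial seryl and histidyl enzymes, were on the high side. Sars2 had 48.9 and 51.0 CPM in sgElovl1 cells, against 45.2 and 45.3 CPM in sgNT cells (0.14, SE 0.07, adjusted p = 0.474). Hars2 had 36.7 and 51.3 CPM in sgElovl1 cells, against 35.9 and 43.9 CPM in sgNT cells (0.13, SE 0.07, adjusted p = 0.549). The 2 guides did not overlap for Sars2, and did for Hars2. The serine pair had its cytosolic enzyme at -0.18 and its mitochondrial enzyme at 0.14 on the log2 scale, and neither passed the test.

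The 2 experiments did not give the same picture. In experiment 1, 33 of 37 members were lower in sgElovl1 than in sgNT cells, among them all 20 cytosolic genes, with log2 fold changes of -0.31 to -0.017, and 13 of 17 mitochondrial genes. Over all genes tested, 54.4% were lower there. In experiment 2, 15 of 37 members were lower, 9 cytosolic and 6 mitochondrial, against 8003 of 16006 genes in all, and the cytosolic log2 fold changes ran between -0.15 and 0.12. The cytosolic median was -0.11 in experiment 1 and 0.0052 in experiment 2. Members lower in both experiments numbered 14 of 37, against 30.1% of all genes. Members higher in both numbered 3 of 37, the mitochondrial Sars2, Hars2 and Vars2, against 25.6% of all genes. With the part of the guide's fold changes that runs along the gap between experiments across genes subtracted, the cytosolic median over both was -0.0041. The experiments were already a term in the fit. Such a subtraction would also take out a guide effect in the same direction, so it cannot tell the 2 apart. A fold change of a single experiment compares 2 columns and has no replicate check.

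**Figure D2:**
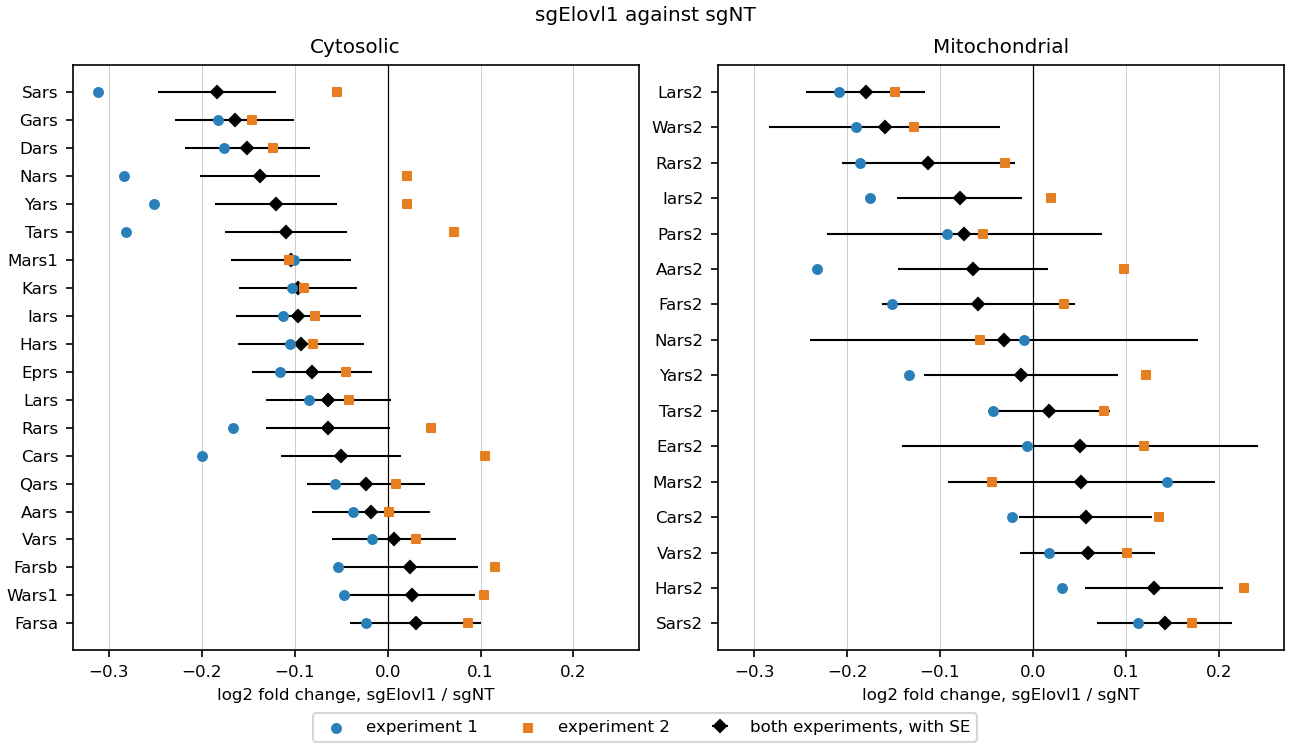
Log2 fold change of sgElovl1 over sgNT for 20 cytosolic (left) and 16 mitochondrial (right) synthetase genes, with the fit over both experiments (black diamonds, bars 1 SE) and each experiment alone (blue circles for experiment 1, orange squares for experiment 2). All 20 cytosolic circles lie below 0 while the squares lie between -0.15 and 0.12, and no gene passed the test.

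The experiments themselves were compared next, in the same fit with the guide as a second term, to see how the members vary between cultures. Of the 37 synthetases 31 passed the test, 26 lower and 5 higher in experiment 2, where over all genes tested 29.2% were lower and 26.4% were higher. In the cytosolic set 18 of 20 genes were lower, Qars was higher and Vars did not pass. In the mitochondrial set 8 of 17 were lower, 4 were higher and 5 did not pass, a split that became 5 lower and 7 higher with upper-quartile scaling. The median log2 fold change was -0.78 for cytosolic genes, -0.15 for mitochondrial genes (-0.060 without Lars2) and -0.0025 for all genes tested. Summed over the 20 cytosolic genes, the level was 2428 CPM in sgElovl1 and 2447 CPM in sgNT cells of experiment 2, against 3520 and 3866 CPM in experiment 1. The mitochondrial sum was 635 and 615 CPM in experiment 2, against 812 and 882 CPM in experiment 1, and without Lars2 it was 539 and 508 CPM, against 495 and 516 CPM. Each experiment was 1 column per guide, and mice, culture, sort and library cannot be told apart within it.

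The largest falls in the cytosolic set were in enzymes for aspartate, phenylalanine, asparagine, isoleucine, glutamate with proline, and glycine. Dars had 43.3 CPM in sgElovl1 and 47.1 CPM in sgNT cells of experiment 2, against 126 and 143 CPM in experiment 1, so that 33.7% of the level remained (log2 fold change -1.57, SE 0.07, adjusted p = 1.93e-112 in edgeR). Farsb, the beta subunit of the phenylalanyl enzyme, had 27.4 and 25.3 CPM in experiment 2, against 67.3 and 69.9 CPM in experiment 1 (-1.38, SE 0.07). Its partner Farsa, the alpha subunit with the catalytic site, fell less, by 0.47 on the log2 scale (SE 0.07). In all 3 genes both columns of experiment 2 lay below both columns of experiment 1.

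Nars had 80.0 and 78.9 CPM in sgElovl1 and sgNT cells of experiment 2, against 177 and 216 CPM in experiment 1 (-1.30, SE 0.06). Iars, the isoleucyl enzyme of the complex, had 45.6 and 48.2 CPM in experiment 2, against 107 and 116 CPM in experiment 1 (-1.25, SE 0.07). The experiments did not overlap in either gene. Eprs, which joins glutamyl and prolyl enzymes in a single chain, had 81.6 and 84.2 CPM in experiment 2, against 168 and 182 CPM in experiment 1 (-1.08, SE 0.06). Gars had 152 and 168 CPM in experiment 2, against 314 and 357 CPM in experiment 1 (-1.07, SE 0.06). In these 2 genes too, both columns of experiment 2 lay below both columns of experiment 1. Yars (tyrosine) at -1.04 and Mars1 (methionine) at -1.04 were the other cytosolic genes with a log2 fold change under -1, which made 8 in all.

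The remaining cytosolic genes that fell were Lars (leucine), Rars (arginine), Tars (threonine), Wars1 (tryptophan), Hars (histidine), Cars (cysteine), Kars, Aars (alanine) and Sars, at -0.90 to -0.44. Vars had a log2 fold change of -0.021 (SE 0.07, adjusted p = 0.814), with 545 and 534 CPM in experiment 2, against 544 and 551 CPM in experiment 1. Qars, the glutaminyl enzyme of the complex, rose by 0.21 (SE 0.06, adjusted p = 0.00215), with 253 and 252 CPM in experiment 2, against 214 and 223 CPM in experiment 1. Its columns of experiment 2 were both above those of experiment 1, but Qars no longer passed the test when either column of experiment 2 was left out.

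Sorted by structure, the 8 enzymes of the multisynthetase complex (Dars, Eprs, Iars, Kars, Lars, Mars1, Qars and Rars) had 7 lower and 1 higher, with a median of -0.97. Outside the complex 11 of 12 were lower, with a median of -0.65. Synthetases have 1 of 2 unrelated catalytic folds. The class I enzymes, with a Rossmann fold, had 7 of 9 lower and 1 higher, and of the class II enzymes, built on an antiparallel sheet, 10 of 10 were lower. Eprs holds an enzyme of each class and was left out of that count. Among the 18 cytosolic genes that were lower, 17 had the smaller fall in sgElovl1 cells, where the median of the 20 genes was -0.68 against -0.90 in sgNT cells. Of all genes lower in experiment 2, 64.4% had the smaller fall in sgElovl1 cells. By arithmetic, that difference between guides is the difference between experiments in the guide's fold change given above, and it is no separate observation. It was not tested, because no residual degree of freedom was left for it.

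The mitochondrial set had no common direction between experiments. Lars2 fell most of all 37 genes. It had 96.4 CPM in sgElovl1 and 107 CPM in sgNT cells of experiment 2, against 317 and 367 CPM in experiment 1 (-1.75, SE 0.06, adjusted p = 1.63e-150 in edgeR), which left 29.8% of the level. It supplied 15.2% and 17.4% of the summed mitochondrial CPM in experiment 2, against 39.0% and 41.5% in experiment 1. Ears2, the glutamyl enzyme that also starts the route to glutaminyl-tRNA, had 3.07 and 2.82 CPM in experiment 2, against 7.01 and 7.04 CPM in experiment 1 (-1.25, SE 0.19). Nars2 had 2.60 and 2.702 CPM in experiment 2, against 5.91 and 5.95 CPM in experiment 1 (-1.16, SE 0.21). Both genes were read from few counts, at least 135 per column, and their experiments did not overlap.

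Rars2 had 15.2 and 15.5 CPM in sgElovl1 and sgNT cells of experiment 2, against 23.4 and 26.6 CPM in experiment 1 (-0.70, SE 0.09). Yars2, the mitochondrial tyrosyl enzyme, had 12.8 and 11.8 CPM in experiment 2, against 18.04 and 19.8 CPM in experiment 1 (-0.62, SE 0.10). The opposite direction was led by Tars2, which had 113 and 107 CPM in experiment 2, against 81.4 and 83.9 CPM in experiment 1 (0.42, SE 0.07, adjusted p = 1.34e-09). Hars2 at 0.39, Aars2 (alanine) at 0.36 and Fars2 (phenylalanine) at 0.23 also rose. Pars2 (proline) at -0.36 and Iars2 (isoleucine) at -0.15 fell, and neither was past threshold with upper-quartile scaling. Sars2, Wars2, Vars2 (valine), Cars2 (cysteine) and Mars2 did not pass, with log2 fold changes of -0.16 to 0.22.

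**Figure D3:**
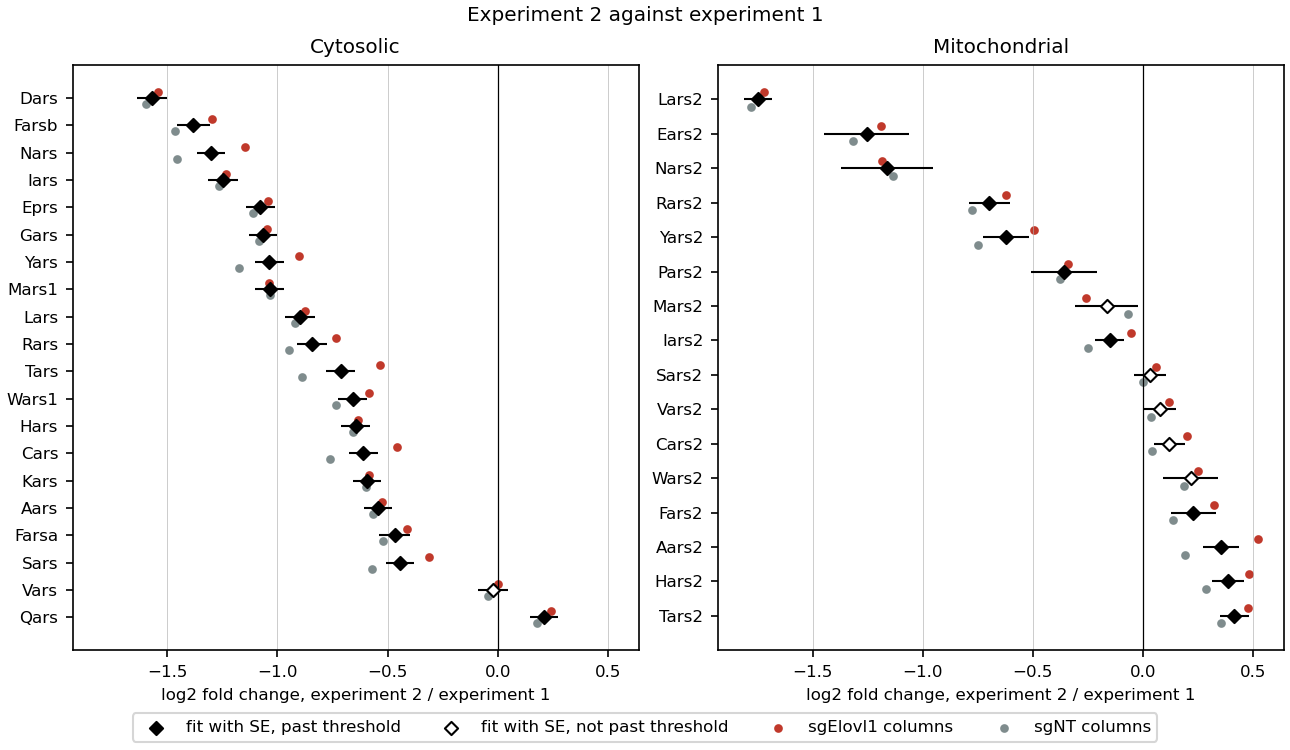
Log2 fold change of experiment 2 over experiment 1 for 20 cytosolic (left) and 16 mitochondrial (right) synthetase genes, with the fit and its SE (diamonds, filled where past threshold) and the fold change in sgElovl1 (red) and sgNT (grey) columns alone. In the cytosolic set 18 filled diamonds lie below 0 and Qars alone above it, whereas the mitochondrial set spans -1.75 (Lars2) to 0.42 (Tars2).

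Enzymes for the same amino acid in both compartments could be paired in 18 ways, over 17 mitochondrial and 17 cytosolic genes, since Fars2 meets both Farsa and Farsb and Eprs meets both Ears2 and Pars2. The cytosolic enzyme had the lower log2 fold change between experiments in 16 of 18 pairs, and the median difference, cytosolic minus mitochondrial, was -0.72. In 9 pairs the 2 values had opposite signs. The widest gap was that of Farsb and Fars2, at -1.38 and 0.23. Tars and Tars2 stood at -0.71 and 0.42, and Hars and Hars2 at -0.65 and 0.39. The pairs that went the other way were Lars and Lars2, at -0.90 and -1.75, and Eprs and Ears2, at -1.08 and -1.25. No test was made of the pairs, which are described only.

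**Figure D4:**
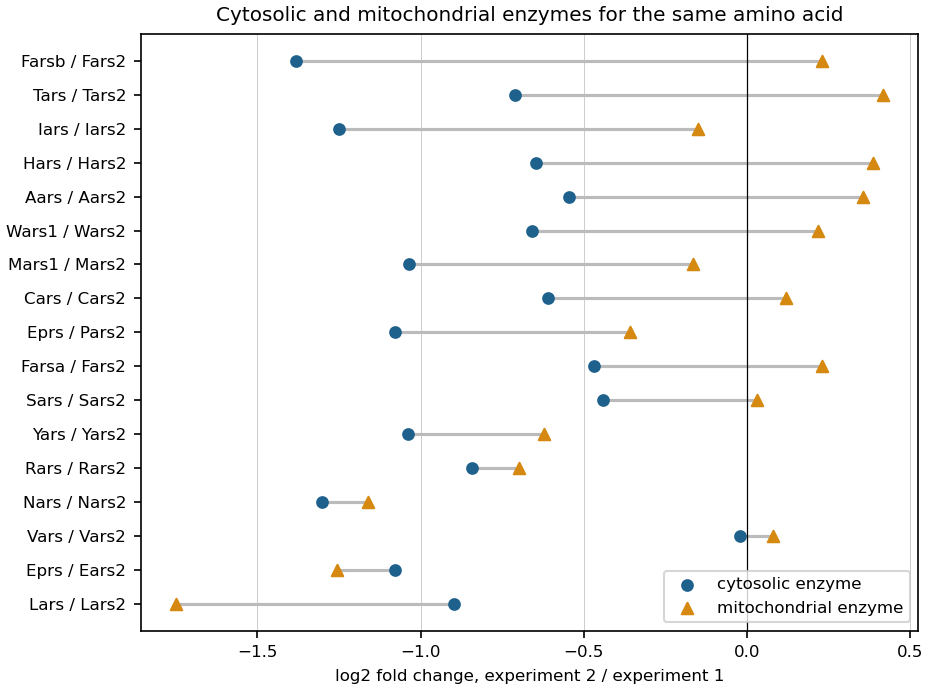
Log2 fold change of experiment 2 over experiment 1 for the cytosolic enzyme (blue circles) and the mitochondrial enzyme (orange triangles) of the same amino acid, a line joining the 2, ordered by their difference. The circle lies left of the triangle in 15 of the 17 pairs drawn, all but Eprs with Ears2 and Lars with Lars2 at the bottom.

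Some markers of other cells also differed between the experiments. The 2 CD4 T cell markers summed to 10.6 and 8.67 CPM in sgElovl1 and sgNT cells of experiment 2, against 5.57 and 4.31 CPM in experiment 1, nearly all of it Foxp3, with Cd4 at 0 in both columns of experiment 2. The 6 myeloid markers summed to 14.9 and 13.4 CPM in experiment 2, against 11.6 and 9.31 CPM in experiment 1. Most of that sum was Cd68, with 11.1 and 9.95 CPM in experiment 2, against 10.7 and 8.37 CPM in experiment 1. Itgam changed more, with 2.69 and 2.28 CPM in experiment 2, against 0.399 and 0.253 CPM in experiment 1. Csf1r had 1.01 and 1.08 CPM in experiment 2, against 0.494 and 0.695 CPM in experiment 1. Csf3r was at 0 in every column, Lyz2 reached at most 0.0200 CPM and Adgre1 at most 0.162 CPM. The 8 CD8 T cell markers summed to 5919 and 6028 CPM in experiment 2, against 5129 and 5277 CPM in experiment 1. They did not move alike. Ptprc had 1692 and 1774 CPM in experiment 2, against 1154 and 1153 CPM in experiment 1. Trac was lower, with 709 and 755 CPM in experiment 2, against 1033 and 1067 CPM in experiment 1. Whether other cells were present, and what part they had in the synthetase differences, was not tested.

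The promoters of the members were read for the letters that ATF4 and Myc are known to bind, because the cytosolic genes moved together between experiments. Windows from 250 bases before to 50 after the start were taken from RefSeq on GRCm38.p6, an older build than the GRCm39 of the counts, and 27 members had one, 13 cytosolic and 14 mitochondrial. Members without a window included Cars, Hars, Hars2, Lars, Nars, Pars2, Rars, Vars and Wars1. The core of the amino acid response element, TGATGNAA on either strand, was in 5 of 13 cytosolic windows (38.5%), in 0 of 14 mitochondrial windows, and in 4.51% of the windows of all 27025 genes. Of the 6 matches, 5 are shown, 1 for each gene that held the letters. All of these genes fell between experiments, as did every other cytosolic gene with a window except Qars. Each match has the strand of its gene and the 8 matching bases in capitals, which read TGATGNAA or its reverse complement. They lie at Yars (chr4:129189895-129189924, plus strand), Gars (chr6:55037960-55037989, plus strand), Aars (chr8:111033840-111033869, plus strand), Iars (chr13:49682126-49682155, plus strand) and Tars (chr15:11399655-11399684, minus strand).
Yars: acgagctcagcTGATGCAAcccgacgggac
Gars: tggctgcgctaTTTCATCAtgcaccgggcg
Aars: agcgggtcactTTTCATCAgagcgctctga
Iars: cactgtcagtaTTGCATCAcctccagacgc
Tars: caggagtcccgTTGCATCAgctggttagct

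The match in Gars began 30 bases and that in Tars 15 bases before the start of the gene. The matches shown for Yars, Aars and Iars lay just after the start. The match not shown, also in Aars, began 112 bases before the start. The 5 genes had log2 fold changes between experiments of -0.55 (Aars) to -1.25 (Iars), a range that also holds genes whose window had no match. Dars and Farsb, with the largest falls in the cytosolic set, had no match. The E-box CACGTG, which Myc binds and which reads the same on both strands, was in 4 of 13 cytosolic windows (Aars, Farsb, Iars and Tars), in 1 of 14 mitochondrial windows (Ears2), and in 8.09% of the windows of all genes. The 2 motifs share no bases here. A match describes the sequence only, and a window without one says nothing of the factor.

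Genes around the synthetases were read from lists of their partners. The counts of every list below are to be set beside the shares over all genes tested. For the guide, 1.20% of all genes passed, both directions together. Between experiments, 29.2% of all genes were lower and 26.4% were higher in experiment 2. Of the 3 scaffold genes of the multisynthetase complex, none passed for the guide, where Aimp2 had -0.21 (SE 0.08, adjusted p = 0.241) and Eef1e1 had -0.20 (SE 0.10, adjusted p = 0.438). Between experiments Eef1e1 fell by 1.64 (SE 0.10) and Aimp2 fell by 1.45 (SE 0.08), whereas Aimp1 had 0.047 (SE 0.07) and did not pass. Aimp2 had 17.3 and 17.3 CPM in sgElovl1 and sgNT cells of experiment 2, against 41.5 and 53.6 CPM in experiment 1. Both columns of experiment 2 lay below those of experiment 1.

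The cytosolic elongation factors, of which Eef1a1 brings charged tRNAs to the ribosome, had 0 of 5 past threshold for the guide. Between experiments 4 of 5 were lower in experiment 2, with a median of -0.30. Eef1d, of the exchange factor that also binds Vars, had -0.22 for the guide (SE 0.06, adjusted p = 0.0555), and Eef1g had -0.13 (SE 0.07, adjusted p = 0.517). Of 10 mitochondrial translation partners, 1 fell for the guide, and 5 were lower and 3 higher in experiment 2. That gene was Tufm, the elongation factor that carries charged tRNAs to the mitochondrial ribosome. Tufm had 121 and 102 CPM in sgElovl1 cells of experiments 1 and 2, against 145 and 118 CPM in sgNT cells (-0.23, SE 0.06, adjusted p = 0.0323). Its sgElovl1 column was the lower in both experiments. The call was lost with DESeq2 size factors (adjusted p = 0.0741) and with the likelihood-ratio test of DESeq2 (0.432). In edgeR it was also lost with no filter on low counts (0.111) and with the shift between experiments removed (0.137), among others. The range was 0.0177 to 1.00 over all alternatives.

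Among 22 genes of tRNA maturation and export, 1 fell for the guide, and 17 were lower and 1 higher in experiment 2, with a median of -0.45. Pop5, a protein of the RNase P and MRP complexes that trim tRNA and ribosomal RNA precursors, had 48.0 and 34.9 CPM in sgElovl1 cells, against 65.0 and 37.4 CPM in sgNT cells (-0.27, SE 0.07, adjusted p = 0.0225). The call was lost with the likelihood-ratio test of DESeq2 (adjusted p = 0.742). In edgeR it was lost with no filter on low counts (0.0869) and with the shift between experiments removed (0.214), among others. The range was 0.0147 to 1.00 over all alternatives. Of 5 tested genes that edit misloaded tRNAs or resemble synthetases, none passed for the guide, and 2 were lower in experiment 2. The smallest p values for the guide there were those of Aarsd1 at 0.39 (SE 0.34, adjusted p = 0.755) and Dtd2 at -0.12 (SE 0.11, adjusted p = 0.794). Tarsl2, a second cytosolic threonyl enzyme outside the symbol rule, was 1 of those 2, and fell by 1.16 (SE 0.16).

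The route to selenocysteine, whose tRNA is first charged by Sars, had 0 of 4 past threshold for the guide and 1 of 4 lower in experiment 2. For the guide, Pstk, the kinase of that route, had 0.22 (SE 0.09, adjusted p = 0.357), and Secisbp2, which binds selenoprotein messages, had 0.16 (SE 0.07, adjusted p = 0.393). Of 23 tested genes of the amino acid response, 1 fell for the guide, and 18 were lower and 2 higher in experiment 2, with a median of -1.02. Asns, which makes asparagine, had 64.4 and 15.2 CPM in sgElovl1 cells of experiments 1 and 2, against 79.3 and 18.3 CPM in sgNT cells (-0.29, SE 0.08, adjusted p = 0.0215). Its sgElovl1 column was the lower of each pair. The call was lost with the likelihood-ratio test of DESeq2 (adjusted p = 0.563). In edgeR it was lost without the shift that runs along the difference between the experiments (-0.10, adjusted p = 0.834). It was also lost with no filter on low counts (0.0841), among others, within a range of 0.0271 to 1.00 over all alternatives. Between experiments Asns fell by 2.10 (SE 0.08). Atf4 itself had -0.29 (SE 0.06, adjusted p = 2.35e-05) between experiments. Ddit3 and Ppp1r15a, which act in the stress arm of that response, were the 2 higher genes, at 0.81 and 0.65. Of the same list, Chac1, Atf3, Nupr1 and Trib3 were lower, at -2.14, -1.74, -1.47 and -0.47. A common direction of that arm was not tested. Myc had 0.18 for the guide (SE 0.06, adjusted p = 0.168) and fell by 0.35 (SE 0.06) between experiments.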

How the data were processed

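Per the labels and the study's methods, poly(A) RNA was sequenced with a strand-specific protocol, and the authors ran STAR 2.7.10b on GRCm39 (mm39) and featureCounts 2.0.1 (R 4.3.3) in its reverse-stranded setting, where a gene's count includes its introns. The sources used here do not give the annotation release or how reads with several alignments were handled. The authors summed replicate mice of an experiment and deposited raw counts by gene symbol, with no normalization. Reads that fit both a synthetase gene and a pseudogene of it could be counted to either.

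Counts were scaled by TMM, filtered with filterByExpr (guide as group) and fitted in edgeR 4.0.16 (quasi-likelihood F test) with experiment and guide as terms, Benjamini-Hochberg adjustment over all genes tested and a threshold of 0.05. The 1 residual degree of freedom and an infinite prior made p-values, SE and intervals rest on the dispersion trend of all genes (biological coefficient of variation 7.04%), not on each gene's own spread. Replicates are described as mice, so columns carry their spread only in sum. CPM values follow TMM. Single-experiment fold changes used a prior of 0.01 CPM. Transcript lengths came from GENCODE vM21. Tests were also run on simulated counts drawn with the dispersion of this fit. They cannot show whether that dispersion holds for these columns.

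The members and gene lists were chosen with earlier results of these data known. Values in all columns are given for the 5 cytosolic and 5 mitochondrial members with the smallest p for the guide, and the 6 of each with the largest change between experiments among those past threshold. Each list gives the genes past threshold for the guide, or the 2 with the smallest p. Vars, Qars, Farsa, Aimp1, Atf4, Ddit3, Ppp1r15a and other list genes named for the experiments were chosen after their values were seen. Some items are not reported here. The alternatives comprised other scaling, filters and tests (DESeq2 1.42.0, limma 3.58.1), no second term, 20 top genes and mitochondrial genome genes left out, each column left out, and removal of a shift between experiments.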

Additional observations from a re-analysis of the deposited data

Results flagged for a closer look

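Tars, Cars and Aars2 had fold changes of opposite sign for the guide in the 2 experiments, each past a 95% interval that covers counting error only and leaves out the spread between mice. The log2 fold change of sgElovl1 over sgNT for Tars was 0.072 in experiment 2 and -0.28 in experiment 1, a difference of 0.35. For Cars it was 0.10 in experiment 2 and -0.20 in experiment 1, a difference of 0.30. For Aars2 it was 0.098 in experiment 2 and -0.23 in experiment 1, a difference of 0.33. The difference was not tested, since each value compares 2 columns. In all, 20 of 37 members had opposite signs in the experiments. Over all genes tested, 30.1% were lower in both experiments and 25.6% were higher in both, and the rest had no common sign. How many of all genes the same rule would flag was not counted. The counting intervals of experiment 2 reached 0.065 for Tars and 0.095 for Aars2, close to their fold changes. Groups had too few columns to look for outlying ones.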

How the results depend on the processing

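No synthetase passed for the guide under any alternative, with adjusted p-values of at least 0.0905 (Sars, limma-voom) and up to 1.00. Removing the shift that runs along the difference between experiments (slope 0.0887 over 9758 genes) moved the cytosolic median to -0.0041. The log2 fold change became -0.14 for Sars (adjusted p = 0.544), -0.070 for Gars, -0.012 for Dars, -0.022 for Nars, -0.028 for Yars and -0.025 for Lars2. Genes called for the guide in all numbered 192, against 94 with no filter, 35 with a filter at 5 CPM, 26 with either DESeq2 test, 72 without the shift, 0 with no experiment term, 239 with upper-quartile factors, 176 with DESeq2 size factors, 193 with limma-voom and 191 without the mitochondrial genome and 20 top genes. With no experiment term Elovl1 had -0.80 and was not past threshold (adjusted p = 1.00), and with a column left out and no experiment term it ranged over -0.89 to -0.68, also not past threshold.

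Leaving out a column leaves the experiments unbalanced between guides, and 8 named members then changed sign. The ranges were -0.43 to 0.11 for Sars, -0.79 to 0.47 for Gars, -1.13 to 0.84 for Dars, -0.88 to 0.70 for Nars, -0.68 to 0.54 for Yars, -1.29 to 0.95 for Lars2, -0.10 to 0.37 for Hars2 and -0.47 to 0.31 for Rars2. Of the list genes called for the guide, Asns then ranged over -1.68 to 1.11 and Pop5 over -0.62 to 0.14.

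Between experiments, 27 to 31 members were called under the alternatives and 24 to 30 with a column left out, and no called member changed direction. The 18 cytosolic falls stayed called throughout. Lost calls concerned mitochondrial members such as Iars2, Pars2 and Fars2, and also Qars without either column of experiment 2, and Aars2 and Hars2 without its sgElovl1 column. Upper-quartile scaling, which put the median of all genes at 0.081, added Wars2, Cars2 and Vars2. Nars2 and Ears2 were not tested at the 5 CPM filter.

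No paired analysis was possible because each column sums both replicates and carries no replicate number, which leaves only the experiment term to pair the columns of the guides. With 1 residual degree of freedom, 2 mice per column and a single vector per arm, adjusted p-values between experiments describe these columns. For rare members such as Nars2 and Ears2, depth limited the SE.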
